A study of Caenorhabditis elegans with 2 samples.

Results

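Nuclear pore and nuclear transport genes of Caenorhabditis elegans were examined for binding of FOS-1, a C. elegans transcription factor of the basic leucine zipper class and a relative of mammalian Fos. The members were the 40 protein-coding genes, of 19985 in the annotation of assembly WBcel235 (ce11), whose symbol starts with npp-, imb-, ima- or ran- and a number, together with xpo-1, xpo-2 and xpo-3. They comprised 26 nucleoporin genes and 14 genes of transport factors. The rule uses gene symbols alone. Binding came from ChIP-seq, the sequencing of DNA that co-precipitates with a protein, of whole mixed-sex L1 larvae (the stage that hatches from the egg), with 2 biological replicates. Both replicates came from strain OP304, which carries the unc-119(ed3) mutation on the third chromosome and the integrated transgene wgIs304 with eGFP-tagged fos-1. There was 1 group, so no condition was compared with another. The factor was read through a tagged transgene, and in whole larvae strong binding in few cells and weak binding in many cannot be told apart.

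The nuclear pore complex is a ring-shaped assembly of nucleoporins set in the nuclear envelope. Its scaffold is made of an inner ring and of outer rings built from Y-shaped complexes, its channel is filled by nucleoporins rich in phenylalanine-glycine repeats, and filaments and a basket extend from its faces. Importins and exportins carry proteins and RNA through the channel and bind or release cargo according to the state of the small GTPase Ran, which is loaded with GTP in the nucleus and hydrolyses it in the cytoplasm.

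Promoters of these genes held FOS-1 entries more often than the background of all genes. A summit of the authors' list of reproducible peaks, selected by the irreproducible discovery rate (IDR) procedure, lay in the promoter window of 12 of 40 members (30%, 95% Clopper-Pearson interval 16.6 to 46.5), against 7.65% of all protein-coding genes. The pooled list was made from both replicates, is labelled as peaks and background, and also holds weak regions. It placed a summit in the windows of 34 of 40 members (85%, interval 70.2 to 94.3), against 32.8% of all genes. Among the genes that carry a symbol of 3 or 4 letters and a number, as all members do, the shares were 9.68% and 37.4%. The window reached 1000 bp upstream of a gene's 5' end and 200 bp into the gene. The intervals cover counting error over genes only, and no test of the list was made. A pooled entry is not by itself a called peak. The deposited −log10 q value was 3.63 in all IDR entries. Outside that list it was also 3.63 at the strongest entries of npp-16, npp-22, ran-4 and xpo-2. It ran from only 0.0503 to 1.13 at those of npp-2, npp-23, npp-4, npp-5, npp-1, xpo-1, npp-20, npp-15, imb-2, ima-3 and npp-27. The remaining strongest entries lay between 1.13 and 3.63.

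**Figure D1:**
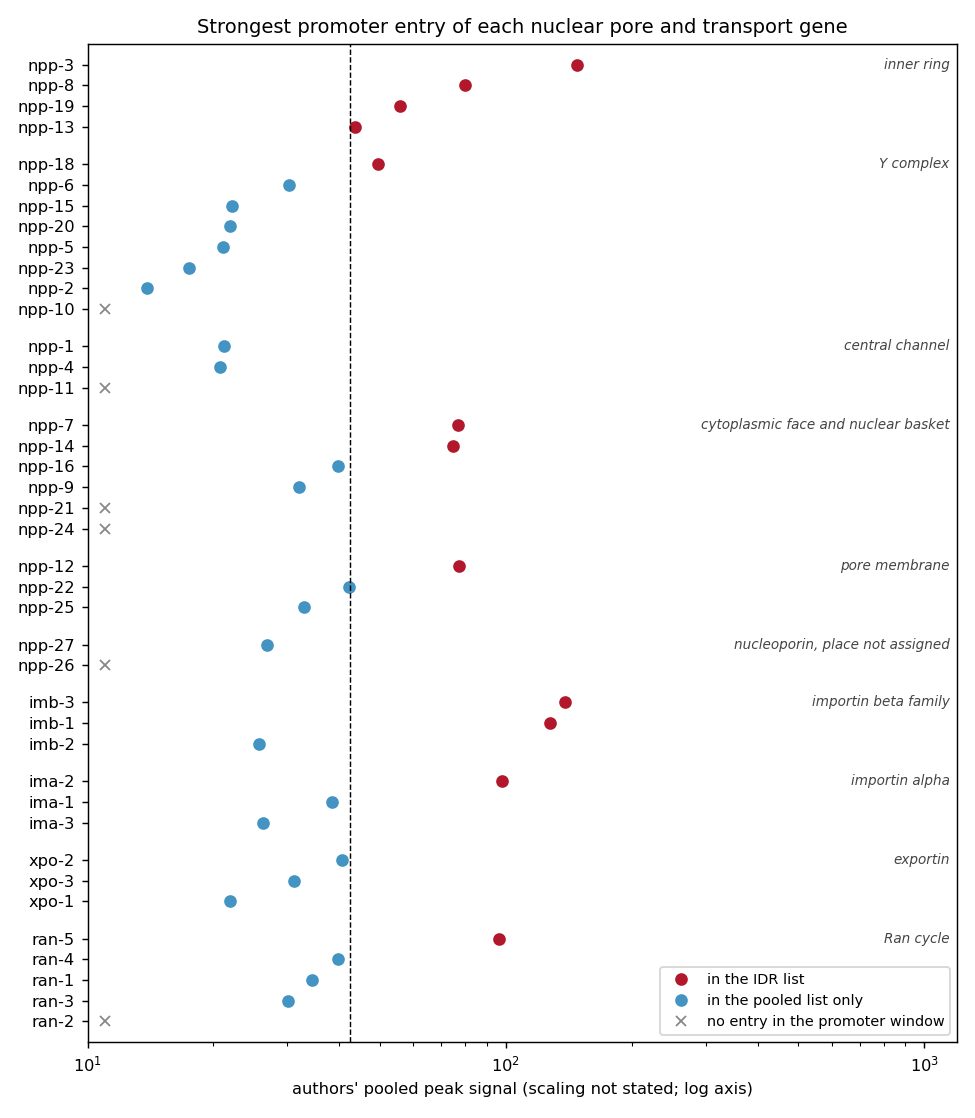
Signal of the strongest pooled entry in the promoter window of each of the 40 members (x axis, authors' signal on a log axis), grouped by role on the y axis. The dashed line marks the lowest signal in the IDR list, 42.5. The 12 members in the IDR list run from 43.6 at npp-13 to 148 at npp-3, and crosses mark the 6 members with no entry.

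The IDR list held 1895 entries, which were the 1895 entries of highest signal among the 20363 of the pooled list. The limit of the IDR list is therefore a cut on signal. Whether the members form a graded series or a bound and an unbound class was not tested. The strongest promoter entry ranked 1 to 1895 in the pooled list at 12 members, 1896 to 3790 at 11 members (27.5%, against 4.93% of all genes) and 3791 to 7580 at 9 members (22.5%, against 6.53%). Only 2 members (5%, against 13.7%) had a strongest entry of rank 7581 to 20363, namely npp-23 and npp-2. No entry was listed in the windows of 6 members (15%) and of 67.2% of all genes. The lowest signal in the IDR list was 42.5, and npp-22 fell just short of it with 42.1. The median signal of the strongest entry was 36.4 over the 34 members and 21.8 over all genes that had one. The signal is the authors' own value per peak, its scaling is not stated, and read depth is unknown, so a missing entry means not listed.

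**Figure D2:**
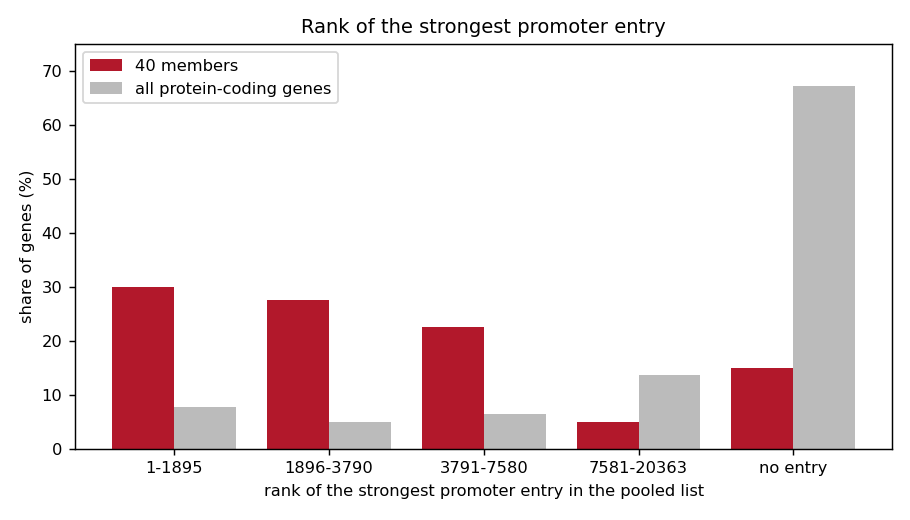
Share of the 40 members and of all 19985 protein-coding genes (y axis, percent) by the rank of the strongest promoter entry in the pooled list (x axis). The members exceed the background in the classes down to rank 7580, and lie below it among weaker entries and among genes with no entry.

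The inner ring of the pore was the structural group with the most complete coverage: each of its 4 genes had an IDR summit in its window (interval 39.8 to 100%). It is named as the highest of several small groups, and the interval does not allow for that choice. The highest signal of all members was at npp-3, which encodes the worm counterpart of Nup205, a large scaffold protein. Its entry (chrII:11874804-11874911, intergenic, summit 68 bp upstream) had a pooled signal of 148 and rank 159. Replicate 1 gave it a signal of 82.5 and rank 223, and replicate 2 a signal of 62.3 and rank 128, so both placed it among their strongest regions. The entry of npp-8, the Nup155 gene (chrIV:1595861-1596200, intergenic, 207 bp upstream), had a pooled signal of 79.7 and rank 606. It had a signal of 57.2 and rank 471 in replicate 1 and a signal of 26.2 and rank 889 in replicate 2. The entry of npp-19, the gene of the Nup35 homologue (chrII:10798497-10798836, intergenic, 188 bp upstream), was weaker, with a pooled signal of 55.8 and rank 1179. Its signal was 35.9 in replicate 1 and 17.6 in replicate 2, with ranks 1179 and 1775. Signals differ in scale between the lists, so ranks rather than signals were compared across them.

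The sequence under the IDR summits is shown because none of these windows held the AP-1 site of Fos-Jun dimers, TGACTCA or TGAGTCA, on either strand, and because a pair of them shared a long run of letters. Each line gives 101 bases centred on the summit in ce11, read on the strand of the member gene, for npp-3 (chrII:11874806-11874906, minus strand), npp-19 (chrII:10798617-10798717, minus strand), ran-5 (chrII:6047816-6047916, plus strand), npp-8 (chrIV:1595981-1596081, minus strand) and npp-18 (chrIII:13296658-13296758, plus strand). Capitals mark the run shared by npp-8 and npp-18 and, at the end of the npp-8 window, a GC box (GGGCGG on the other strand). The other windows shown held none of the motifs searched and are in lower case throughout.
npp-3: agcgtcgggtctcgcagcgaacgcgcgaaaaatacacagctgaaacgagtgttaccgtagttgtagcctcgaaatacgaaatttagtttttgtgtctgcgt
npp-19: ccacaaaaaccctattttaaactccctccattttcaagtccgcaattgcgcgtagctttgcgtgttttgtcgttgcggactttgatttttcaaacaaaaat
ran-5: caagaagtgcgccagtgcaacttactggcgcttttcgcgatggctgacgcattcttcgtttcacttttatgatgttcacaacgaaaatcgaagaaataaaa
npp-8: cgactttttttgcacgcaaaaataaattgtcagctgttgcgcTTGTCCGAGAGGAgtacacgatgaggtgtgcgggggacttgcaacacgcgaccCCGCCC
npp-18: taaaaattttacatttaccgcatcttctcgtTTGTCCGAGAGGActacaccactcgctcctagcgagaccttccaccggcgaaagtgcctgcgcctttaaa

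The run TTGTCCGAGAGGA, 13 letters long, was the longest string shared by any pair of these 5 windows. The next longest, between npp-19 and npp-3, had 9 letters. It was found from the members' own sequence, so its share among them is a description: 2 of the 12 IDR entries at members held it on either strand, as did 17 of the 1137 IDR entries at any promoter (1.5%) and 26 of the 6281 pooled entries at any promoter (0.414%). The WBcel235 genome held it at 165 places over both strands.

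Of the 8 genes of the Y complex, the outer-ring scaffold, npp-18 had an IDR summit (12.5%, interval 0.316 to 52.7, against 7.65% of all genes). The interval includes the share of all genes. This gene of the Seh1 homologue carried an entry at chrIII:13296538-13296877 (intergenic, 145 bp upstream) with a pooled signal of 49.6 and rank 1465. Its rank was 1737 in replicate 1 and 1292 in replicate 2, inside the strongest 1895 entries of both. A further 6 Y-complex genes were in the pooled list only: npp-6 (Nup160) with a signal of 30.3, npp-15 (Nup133) with 22.1, npp-20 (Sec13) with 21.9, npp-5 (Nup107) with 21.1, npp-23 (Nup43) with 17.5 and npp-2 (Nup85) with 13.8. The entry of npp-2 overlapped no entry in either replicate list, and those of npp-5 and npp-6 overlapped none in replicate 2. The gene npp-10, which encodes the joint precursor of Nup98 and Nup96, had no entry in its window, and the nearest pooled summit was 12588 bp away. None of the 3 central channel genes had an IDR summit (interval 0 to 70.8%), which also includes that share. The Nup54 gene npp-1 had a pooled signal of 21.2 and the Nup58 gene npp-4 one of 20.8, while npp-11, the Nup62 gene, had no entry in its window, and the nearest summit (signal 52.4) was 4791 bp downstream of its 5' end.

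The fourth inner-ring gene, npp-13 (Nup93), lay near the limit of the IDR list. Its entry (chrI:2096940-2097279, intergenic, 236 bp upstream) had a pooled signal of 43.6 and rank 1826. It ranked 2532 in replicate 1, outside that replicate's 1895 strongest entries, and 1753 in replicate 2, inside them.

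Genes of the pore's faces and membrane were split. On the nuclear side, npp-7, the Nup153 gene of the basket, had an entry at chrI:5691580-5691919 with a signal of 76.8 and rank 654, with ranks of 1319 in replicate 1 and 316 in replicate 2. On the cytoplasmic side, npp-14, the Nup214 gene, had an entry at chrI:9665034-9665373 with a signal of 74.5 and rank 698, and ranks of 998 and 399. Both summits were intergenic and lay nearer the 5' end of a gene on the other strand. For npp-7 this was unc-40, a netrin receptor gene, at 247 bp against 514 bp. For npp-14 it was cel-1, the gene of the mRNA capping enzyme, at 47 bp against 289 bp. The Nup50 gene npp-16, with a signal of 39.7 and rank 2099, and npp-9, the gene of the large Ran-binding nucleoporin Nup358, with a signal of 32.0, were in the pooled list only. The basket gene npp-21 (TPR) and npp-24 (Nup88) had no entry in their windows. The nearest summit to npp-24, with a signal of 23.4, lay 268 bp downstream of its 5' end, just past the window. Among membrane nucleoporins, npp-12 (gp210) had an IDR entry at chrI:6446475-6446814 (signal 77.2, rank 646) with ranks of 617 and 821 in the replicates. Its summit lay 659 bp upstream, the greatest distance of any member's strongest entry, and only 180 bp from the 5' end of T23H2.3. The membrane genes npp-22 (NDC1), with 42.1, and npp-25 (TMEM33), with 32.8, were in the pooled list only. The place of npp-26 and npp-27 in the pore was not assigned here. The former had no entry, and the latter had a signal of 26.8.

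Import receptors stood among the strongest members. The importin beta gene imb-1, whose product docks cargo at the pore, had an entry at chrI:4926389-4926728 (intergenic, 73 bp upstream) with a signal of 127 and rank 223. It had a signal of 97.8 and rank 144 in replicate 1, the highest rank of any member there, and a signal of 30.4 and rank 647 in replicate 2. The entry of imb-3, an importin beta family gene, at chrI:315176-315279 (intergenic, 275 bp upstream) had a signal of 138 and rank 193, and ranks of 179 and 264 in the replicates. The transportin gene imb-2 was in the pooled list only, with a signal of 25.7 and rank 4293. Its replicates differed: the entry ranked 15066 in replicate 1 and 1830 in replicate 2. Of the importin alpha genes, whose products link cargo to importin beta, ima-2 had an IDR entry at chrI:6314742-6315081 (intergenic, 321 bp upstream) with a signal of 98.0 and rank 396, and ranks of 604 and 241. The other importin alpha genes were lower, ima-1 with a signal of 38.4 and ima-3 with 26.2.

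Each of the 3 exportin genes had a pooled entry (interval 29.2 to 100%, against 32.8% of all genes). None had an IDR summit (interval 0 to 70.8%), which includes the 7.65% of all genes. The signal was 40.5 at xpo-2, the CAS gene whose product returns importin alpha to the cytoplasm, with rank 2038. It was 31.1 at xpo-3, the tRNA exportin gene, and 21.9 at xpo-1, the gene of the CRM1 exportin for proteins with leucine-rich export signals. The xpo-2 summit lay nearer the 5' end of nol-14, at 193 bp against 310 bp. That of xpo-3 lay nearer C49H3.3, at 10 bp against 308 bp. The xpo-1 entry overlapped no entry of replicate 1. In the Ran cycle, ran-5 had the only IDR summit, in an entry at chrII:6047696-6048035 with a signal of 96.4 and rank 408, and ranks of 363 and 575. Its summit was 243 bp upstream of ran-5 and 1 bp inside the 5' end of R12C12.6, which lies on the other strand. The gene of the NTF2 homologue that imports Ran, ran-4, had a signal of 39.7 and rank 2108. The gene of Ran itself, ran-1, had a signal of 34.3: its entry ranked 1386 in replicate 1, among the strongest 1895, but no entry of replicate 2 overlapped it. The gene of the nucleotide exchange factor RCC1, ran-3, had a signal of 30.1, with ranks of 16568 in replicate 1 and 1712 in replicate 2. No entry was listed at ran-2, the RanGAP gene. It lies 480 bp downstream of npp-15 on the same strand, and the summit nearest to it, 4774 bp upstream, was the one in the npp-15 window.

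The strongest entries lay close upstream of the members' 5' ends. All 34 were upstream, against 89.4% over all genes with an entry. Their median distance was 267 bp, close to the 260 bp of all genes, but the spread was narrower: the quartiles were -337.5 and -190 bp relative to the 5' end, against -531 and -108 bp for all genes. The nearest was at npp-16, 33 bp upstream. No IDR summit lay inside a member gene, and 2.17% of all genes held one. Pooled summits, 16 in all, lay inside 13 of the genes (32.5%), against 28.2% of all genes. Of the 34 strongest summits, 30 were intergenic (88.2%), against 76.3% over all genes with an entry. The exceptions were those of npp-22 (3' UTR of spe-42), npp-27 (5' UTR of ntl-4), npp-6 (an intron of spd-5) and ran-5 (a coding exon of R12C12.6).

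**Figure D3:**
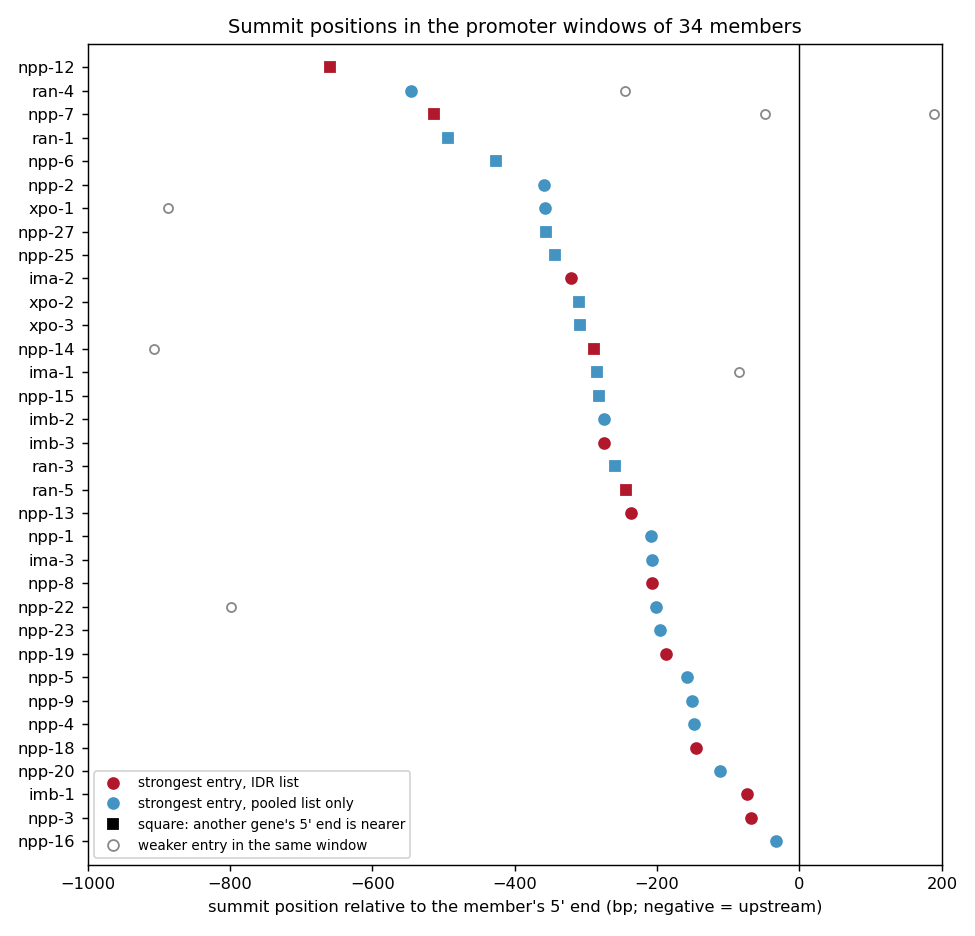
Position of pooled summits in the promoter windows of the 34 members that had one (x axis, bp from the member's 5' end, negative upstream; 1 line per member). Filled symbols are the strongest entry and squares mark summits nearer another gene, which are 13 of the 34. All filled symbols lie between 659 and 33 bp upstream.

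Many members share their upstream region with a neighbour. An opposite-strand gene lay within 1000 bp upstream of 20 of 40 members (50%), against 17.5% of all protein-coding genes. Among such divergent pairs, an IDR summit was in the window of 6 of 20 members, against 19.4% of all genes in that arrangement, and a pooled summit in that of 18, against 48.8%. With a same-strand gene within 1000 bp upstream, an IDR summit was at 1 of 9 members (5.18% of all such genes) and a pooled summit at 7 (29.2%). With no gene within 1000 bp, an IDR summit was at 5 of 11 members (5.16% of all such genes), namely imb-3, npp-8, npp-13, npp-18 and npp-19, and a pooled summit at 9 (29.6%). In each arrangement the pooled share of the members thus exceeded that of all genes. The IDR shares rest on 1 to 6 members each. These classes were formed after the data had been seen.

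**Figure D4:**
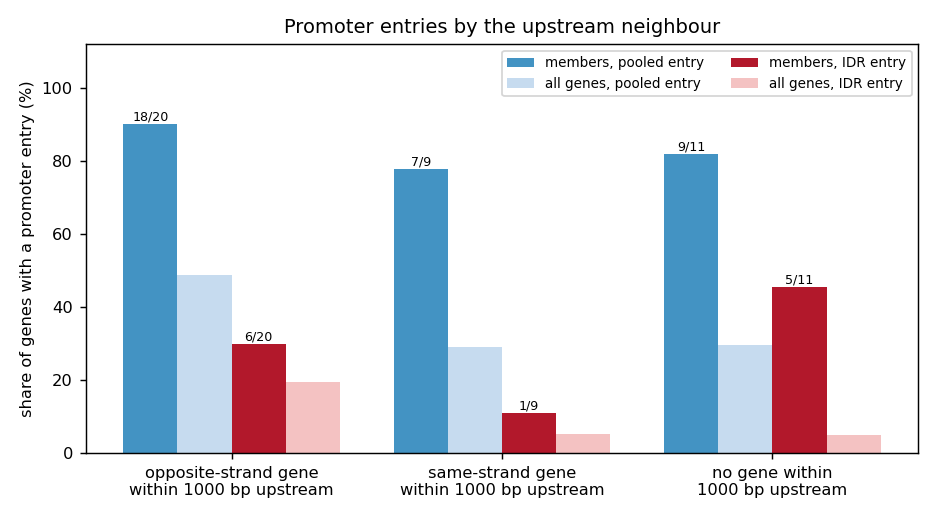
Share of genes with a promoter entry (y axis, percent) by the nearest gene upstream of the 5' end (x axis), for the members and for all protein-coding genes in the same arrangement. Dark bars are members, with their counts above, and pale bars are all genes. The pooled share of the members is above that of all genes in all 3 arrangements.

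Some entries cannot be attributed to the member alone. Another protein-coding 5' end was nearer to the summit for 4 of the 12 IDR entries at members (33.3%, against 28.3% of gene and summit pairs in the IDR list), those of npp-7, npp-12, npp-14 and ran-5. Over the strongest pooled entries this held for 13 of 34 members (38.2%), against 18.2% of all genes with an entry. The neighbours included dkc-1, the dyskerin gene, beside ran-1, spd-5, a centrosome gene, beside npp-6, mrps-10, a mitochondrial ribosomal protein gene, beside npp-25, and ntl-4, a CCR4-NOT complex gene, beside npp-27. Further neighbours were dvc-1 beside ima-1, C29E4.13 beside npp-15, C26D10.3 beside ran-3, nol-14 beside xpo-2 and C49H3.3 beside xpo-3. When each summit was given only to the nearest gene within 2000 bp, 8 members kept an IDR summit (20%, against 6.94% of all genes) and 28 members had a pooled one (70%, against 41.7%). The 28 include members counted through summits outside the promoter window. These were npp-24, which was gained, and npp-14, ran-1, xpo-2 and xpo-3, whose window summits were all nearer another gene. The neighbour top-2, the DNA topoisomerase II gene, faces npp-3 across 360 bp, but that summit was nearer npp-3.

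The replicates largely shared the strongest members and differed lower in the list. All 12 IDR entries at members overlapped an entry in both replicate lists, as did 99.2% of all IDR entries, and 11 of 12 overlapped 1 of the 1895 strongest entries in both, against 68% of all IDR entries. The IDR list was built from these replicate lists, so this overlap is partly by construction. The IDR entries at members also had a higher median signal, 78.4 against 63.6 for all IDR entries. The comparison was not matched for signal. A summit of the 1895 strongest entries of replicate 1 lay in the windows of 12 members (30%, against 7.35% of all genes). For replicate 2 it was 18 members (45%, against 7.37%), and 11 members were in both sets. Replicate 1 alone added ran-1. Replicate 2 alone added imb-2, npp-16, npp-20, npp-22, npp-25 and ran-3, and also held npp-13. Over the 29 members whose strongest entry overlapped both lists, the signals in replicate 1 and replicate 2 had a Spearman's rho of 0.697 and, on the log2 scale, a Pearson's r of 0.751. This is a description across genes that share libraries and a control file. Overlap needed only 1 bp, so a pair need not be the same summit. The replicate 2 summit was shifted from the pooled one by 248 bp at ima-1 and by -261 bp at npp-15.

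**Figure D5:**
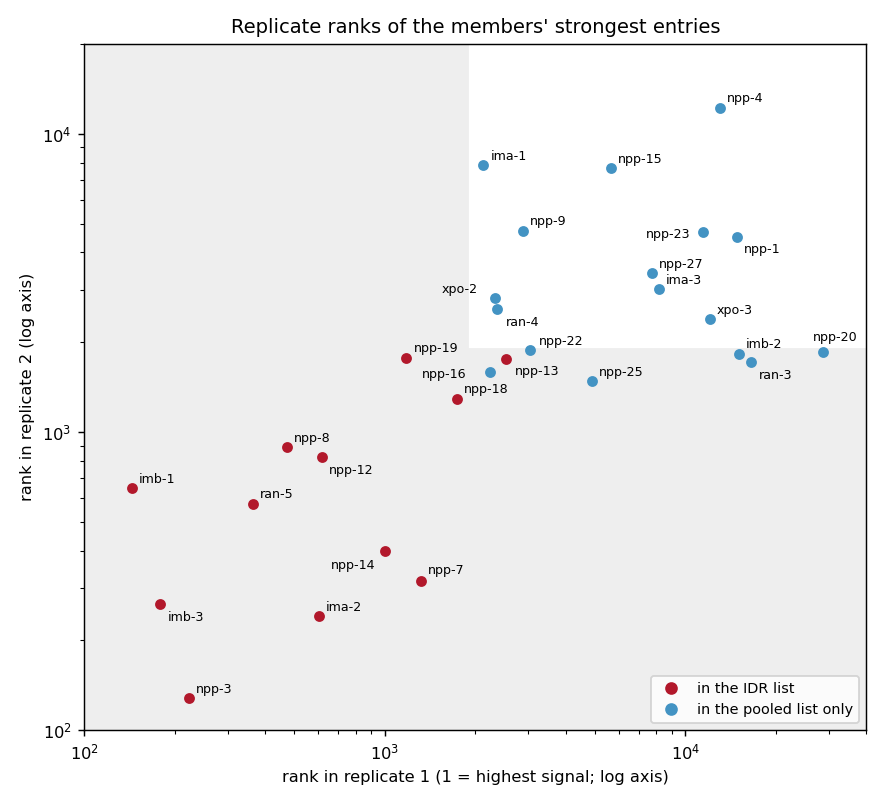
Rank of the overlapping entry in replicate 1 (x axis) and replicate 2 (y axis) for the 29 members whose strongest pooled entry overlapped both lists, both on log axes with 1 as the highest signal. Grey bands mark ranks up to 1895. The 12 IDR members lie at low rank numbers in both, and npp-20, ran-3 and imb-2 rank far lower in replicate 1 than in replicate 2.

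Each of the searched motifs was at 2 or fewer of the 34 strongest summits. Within 50 bp, none of the 12 IDR entries at members and none of the 34 strongest pooled entries held an AP-1 site, which allows shares of up to 25% and 8.82% by a limit of 3 counts. The shares over all promoter entries were 3.08% in the IDR list and 2.12% in the pooled list, so a share like the background was not distinguishable from absence at these numbers. The GA repeat GAGAGAG was at 1 of the 12, npp-7, against 11.3% of IDR entries at promoters. The E-box CACGTG was at 2 of the 34, imb-3 and xpo-1 (5.88%, against 2.39% of pooled promoter entries). The GATA site TGATAA was at 1, ima-2 (2.94%, against 11.1%). The GC box GGGCGG was at npp-8 (against 3.09%) and the forkhead site TGTTTAC at ran-3 (against 2.34%). In the IDR list the E-box, GATA site and GC box were each at 1 of the 12 (8.33%). The shares over IDR entries at promoters were 2.99%, 3.87% and 5.1%. The GATA site thus lay below the background in the pooled list and above it in the IDR list, on 1 entry. No direction can be read from such counts. The cAMP-response site TGACGTCA and the shuffled AP-1 control (TCACTGA or TCAGTGA) were at none of the 34. Searches covered both strands. The median GC content of the 101-base windows was 45% for the 12 entries and 45.5% for all IDR entries at promoters.

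Members were unevenly spread over chromosomes. Chromosome I carried 13 of them, chromosomes II, III and IV carried 8 each and chromosome V 3, and none lay on X, which holds 13.7% of protein-coding genes. An IDR summit was at 7 of the 13 members on chromosome I (53.8%, interval 25.1 to 80.8), against 11.1% of all its genes. It was at 3 of 8 on chromosome II, 1 of 8 on III, 1 of 8 on IV and 0 of 3 on V. Chromosome I is named as the highest of these small groups, and the interval does not allow for that choice. Over the 5 autosomes together the background was 7.84% for the IDR list and 32.5% for the pooled list, close to that of all genes.

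Further gene lists, chosen for comparison, were covered to differing degrees. Of 13 genes of messenger RNA export, 5 had an IDR summit (38.5%) and 12 a pooled summit (92.3%). The strongest was at thoc-7, a THO complex gene, with a signal of 125, but the summit lay 774 bp upstream and nearer rpl-29, a ribosomal protein gene. The others were thoc-5 of the same complex (53.8), hel-1, the gene of a UAP56-type helicase (50.3), ddx-19, a DEAD-box helicase gene (47.6), and nxf-1, the gene of the main export receptor (45.7). The summits of ddx-19 and nxf-1 were also nearer another gene, and the ddx-19 entry overlapped none in replicate 1. Of 19 genes of the nuclear envelope and lamina, 3 had an IDR summit (15.8%) and 10 a pooled one (52.6%). These 3 were lem-3 (58.5) and lem-2 (43.6), both of the LEM-domain family, and baf-1, the gene of a DNA-binding protein that joins chromatin to the envelope (42.8). Of 9 genes of the SUMO pathway, which modifies proteins at the pore and in the nucleus, none had an IDR summit and 5 had a pooled one. Against the 7.65% and 32.8% of all genes, the export list and the envelope and lamina list were above in both, and the SUMO list was at 0% in the first and 55.6% in the second. No intervals were made for these short lists. The envelope and lamina share in the IDR list rests on 3 genes, of which lem-2 and baf-1 lay near the lowest IDR signal, 42.5. The gene rae-1, also a pore protein gene but outside the symbol rule and chosen after its value was seen, had an entry 111 bp upstream with a signal of 60.6 and rank 1042.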

How the data were processed

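The deposited files are peak lists in narrowPeak layout. Per the READMEs deposited with them, 1 control file served for both replicate lists and for the pooled list, and the IDR list was derived from the pooled and replicate lists. The aligner, peak caller and IDR threshold were not given in the sources used here. Entries were ranked within a list by the authors' signal value, whose scaling is not stated. The deposited −log10 q value was 3.63 in all IDR entries and was not used for ranking. The lists held 29801 entries for replicate 1 and 23483 for replicate 2. Depth is unknown. The ce10 lists were not used here, because no annotation of that build was at hand.

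Summits (start plus offset) were placed on Ensembl release 115 genes and RefSeq sequence of WBcel235, which is ce11, and 0 entries ended past a chromosome. Overlap meant at least 1 bp. Placement was tested on simulated summits. Shares are given beside all protein-coding genes, with no set test. Every member is named; members with an IDR summit have full values. Members, lists and motifs were chosen with earlier results of these data known. Rank classes, neighbour classes, further backgrounds and the shared run were chosen after values were seen. Alternatives covered windows, transcript 5' ends, nearest genes, interval overlap, stricter lists, each replicate alone and motif widths. Scripts ran in Python 3.11.15 with pandas 2.3.3 and numpy 2.4.6, intervals used scipy 1.17.1, and matplotlib 3.10.9 drew the plots.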

Additional observations from a re-analysis of the deposited data

How the results depend on the processing

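No paired analysis was possible because there was 1 group. The number of members with an IDR summit was 12 and ran from 8 with nearest genes to 18 without replicate 1. It was 10 with 500 bp upstream and 100 bp downstream, 9 in the 947 entries of higher signal, and 12 with 2000 bp upstream, with every transcript 5' end, with overlapping intervals and without replicate 2. The share over all genes ran from 4.14% to 9.83% under the same settings, below that of the members in each. The number with a pooled summit ran from 28 with nearest genes to 35, the latter with transcript 5' ends or overlapping intervals, both of which added npp-24. The share of all genes with a pooled summit ran from 22.4% in the 10181 entries of higher signal, where 33 members had one, to 42.9% with 2000 bp upstream. Without replicate 1 it was 32, with npp-10 and npp-11 gained and npp-2, npp-5, npp-6 and ran-1 lost. Without replicate 2 it was 34, with ran-2 gained and npp-20 lost. The GA repeat within 25 bp was at 0 of 12 IDR entries, since that of npp-7 lies farther from the summit. IDR entries nearer another gene were 2 of 10 in the narrower window, which left out npp-7 and npp-12, and 6 in each replicate alone, of 18 and of 12. The AP-1 site was at 0 entries under every width tried and in each replicate alone. The replicate-alone motif and neighbour counts were added after the data were seen. Leaving out a replicate gave no value for the median pooled signal or for overlap with both replicates. Without read counts, the depth at which weak regions drop out of the lists could not be assessed.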

Other observations

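Short words were counted in the 101-base windows of the members' strongest pooled entries, out of 512 words of 5 letters with both strands joined. The word with the largest excess over all pooled promoter entries was GCGCA, at 18 of 34 members (52.9%) against 13.9%. It was at 7 of the 12 IDR entries (58.3%), against 34.1% of IDR entries at promoters. The next was AACGA, at 19 of 34 (55.9%) against 20.5%. Both were picked from these windows as the largest differences, so the shares are descriptions. The windows also differed in base composition, with a median GC content of 42.6% at the 34 members and 37.6% at all pooled promoter entries, and its part in these shares was not tested.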
